A study of Homo sapiens with 2 samples.

Results

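The adhesion G protein-coupled receptors (adhesion GPCRs) were described in H1993 cells, an established human lung adenocarcinoma line with an amplified gene of the receptor tyrosine kinase MET, and in a derivative of it that resists MET inhibition. Members were the genes whose symbol consists of ADGR, a letter from A to G, L or V, and 1 digit, which took 28 of the 18944 genes of the deposited count table. RNA was sequenced from 1 library of the parental line, labelled with DMSO as treatment, and from 1 library of the resistant line, labelled with the MET kinase inhibitor PHA665752. By the labels' account, the resistant line was raised in drug increased from 1 nM to 1 µM, was kept in 1 µM, and spent 1 week without drug before experiments. The line's MET amplification is background to both groups, its copy number was not measured here, and the labels do not say whether the resistant line is a clone or a pool. Each group had 1 library, so no difference could be set against a spread between replicates and no test was made; the statements below are about these 2 libraries alone.

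Adhesion GPCRs combine a long extracellular region, which carries adhesion domains, with a receptor core that spans the membrane. Most contain a GAIN domain that cleaves its own chain, so that a short stretch next to the core can act as a tethered agonist once contact with matrix or a neighbouring cell displaces the outer fragment. Single members are known to bind collagen, laminin, transglutaminase or cell surface ligands, and members can signal through G proteins.

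A level of at least 1 CPM (counts per 1000000 counts, after scaling by the trimmed mean of M-values) in at least 1 library was needed for a gene to be measured, and 13 of the 28 members were. A further 8 had some counts but stayed under 1 CPM in both libraries, and 7 had 0 counts in both. A gene was called higher or lower when its log2 ratio of resistant over parental was 1 or more in size and its exact 95% counting interval excluded 0. In the resistant library 4 of the 13 measured members were lower (ADGRF1, ADGRE2, ADGRF4 and ADGRL1) and 2 were higher (ADGRD1 and ADGRL2). Of all 12245 measured genes, 8.29% were lower and 12.1% higher, 20.4% in either direction. ADGRF1 and ADGRD1 lay under 1 CPM in 1 library and were measured only through the other, so for these 2 the filter fixed the direction, though not the size. The median log2 ratio of the measured members was -0.32, with 10 ratios below 0 and 3 above, against a median of 0.00 over all measured genes.

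**Figure D1:**
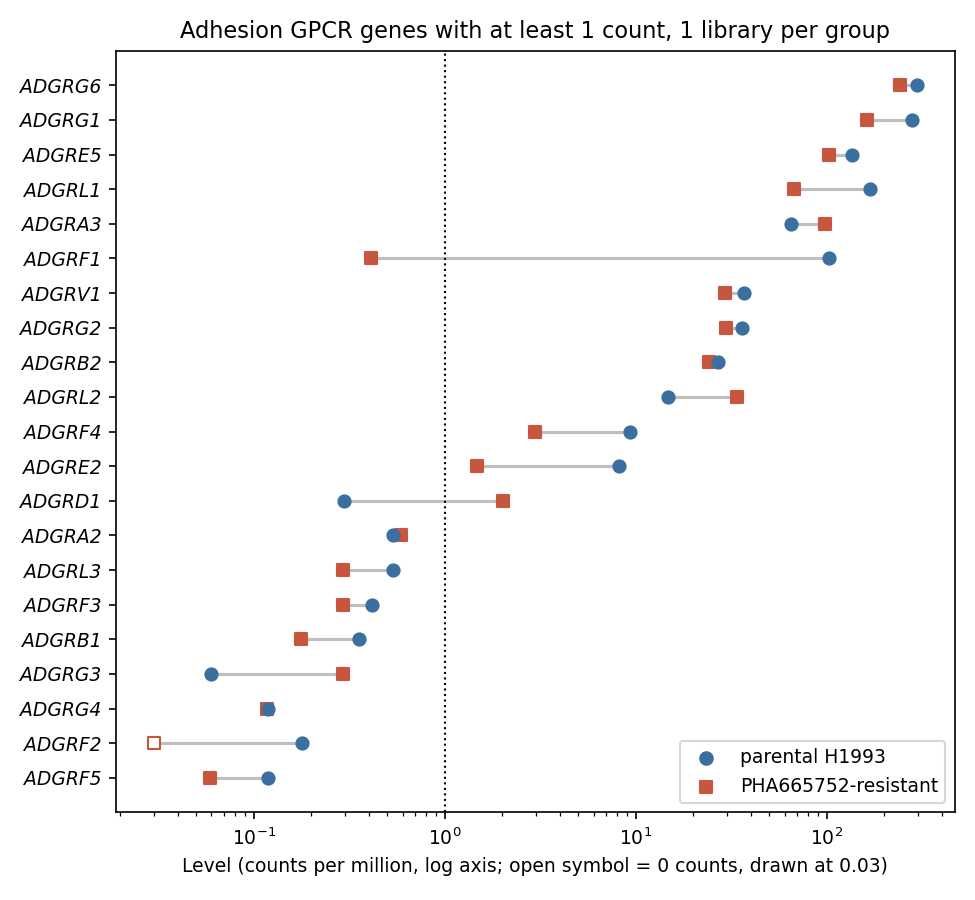
Level of each adhesion GPCR gene with at least 1 count, in CPM on a log axis, in the parental (circles) and the resistant library (squares); the dotted line marks 1 CPM and the open square 0 counts. ADGRF1 spans the widest distance, from 102 to 0.412 CPM, while ADGRG6 and ADGRG1 stand at the top in both libraries.

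The start regions of the ADGRF pair were looked at because both genes lie on chromosome 6 and both were lower. The RefSeq promoter table (GRCh38.p14, 250 bases before to 50 after a gene's start) held windows for 18 of the 28 members, and for 9 of the 13 measured ones. The ADGRF1 window is chr6:47042283-47042582 on the minus strand and the ADGRF4 window chr6:47698330-47698629 on the plus strand. The window of ADGRG6, the member with the highest CPM and not called, is shown for contrast and is chr6:142301757-142302056 on the plus strand. Capitals mark each CG dinucleotide.
ADGRF1: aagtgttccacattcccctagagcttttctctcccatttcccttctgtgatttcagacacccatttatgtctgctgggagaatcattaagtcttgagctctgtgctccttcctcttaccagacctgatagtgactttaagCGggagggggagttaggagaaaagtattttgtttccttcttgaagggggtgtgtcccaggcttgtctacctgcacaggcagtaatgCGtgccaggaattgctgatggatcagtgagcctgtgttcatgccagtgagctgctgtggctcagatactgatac
ADGRF4: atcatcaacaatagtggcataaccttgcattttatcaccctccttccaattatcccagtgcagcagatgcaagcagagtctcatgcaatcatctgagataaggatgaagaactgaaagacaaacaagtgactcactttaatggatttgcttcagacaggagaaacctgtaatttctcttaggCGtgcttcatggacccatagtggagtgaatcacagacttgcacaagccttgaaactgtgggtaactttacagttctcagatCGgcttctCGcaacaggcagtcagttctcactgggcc
ADGRG6: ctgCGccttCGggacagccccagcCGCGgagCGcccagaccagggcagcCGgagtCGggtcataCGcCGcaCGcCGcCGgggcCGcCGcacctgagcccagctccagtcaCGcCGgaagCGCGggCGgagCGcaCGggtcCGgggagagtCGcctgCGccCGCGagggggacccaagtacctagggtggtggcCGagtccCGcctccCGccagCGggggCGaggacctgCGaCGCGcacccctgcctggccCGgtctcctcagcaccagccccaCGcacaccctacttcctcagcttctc
The ADGRF1 window held 2 CG dinucleotides and the ADGRF4 window 3, against 36 in that of ADGRG6. Over 20312 windows of the genes in the deposited table the median was 21 and the quartiles were 7 and 31, and 10.3% of windows held as few as ADGRF1. The other measured members with a single window, none of which was called, had 19 (ADGRV1), 40 (ADGRA3), 48 (ADGRB2) and 50 (ADGRG2). A low content was not limited to ADGRF1 and ADGRF4, since ADGRG1, which was not called, had 5, 6 and 8 in its 3 windows. The lower genes ADGRE2 and ADGRL1 and the higher gene ADGRD1 had no window. ADGRL2, which was higher, has several start regions with 4 to 34. The letters CACCTG, which read CAGGTG on the other strand and which EMT repressors of the ZEB and SNAI families can bind, were absent from the ADGRF1 and ADGRF4 windows and present in 19.7% of all windows. Among the other measured members they occurred in the windows of ADGRG6 and ADGRV1 and in some of those of ADGRG1 and ADGRL2, and not in those of ADGRA3, ADGRB2 and ADGRG2.

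ADGRF1 (GPR110), a receptor for the lipid synaptamide in the nervous system that is also found on tumour cells, differed most within the family. It had 1719 counts (102 CPM) in the parental library and 7 counts (0.412 CPM) in the resistant one. The parental level was 248-fold that of the resistant library (95% counting interval 120 to 617), a log2 ratio of -7.85 with 0.5 added to each count. Only 13 of the 12245 measured genes, ADGRF1 included, had a log2 ratio as low or lower. ADGRF1 made up 8.68% of all counts on the 28 members in the parental library (exact interval 8.29 to 9.08%) and 0.0517% (0.0208 to 0.107%) in the resistant one.

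ADGRF4 (GPR115), its epithelial relative, had 157 counts (9.33 CPM) and 50 counts (2.95 CPM). It was 3.17-fold lower in the resistant library (2.29 to 4.44). The 3 remaining members of the subfamily stayed under 1 CPM: ADGRF2 had 3 and 0 counts, ADGRF3 had 7 and 5, and ADGRF5, a receptor of lung alveolar and endothelial cells, had 2 and 1. Summed over the subfamily, the level was 112 and 3.71 CPM, of which ADGRF1 had 102 and 0.412.

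ADGRE2 (EMR2), a receptor for chondroitin sulphate known from myeloid cells, had 137 counts (8.14 CPM) in parental and 25 counts (1.47 CPM) in resistant cells. It was 5.53-fold lower (3.59 to 8.84). Markers of leukocytes, in which ADGRE2 is best known, summed to 2.38 and 2.89 CPM over 7 genes, and CD3E and FCGR3B were at 0 in both libraries. Under 1 CPM in both were CSF1R with 9 and 1 counts, LYZ with 4 and 2, and CD79A with 1 and 6. PTPRC, a gene of all leukocytes, was lower with 21 and 7 counts, while the myeloid gene CD14 was higher with 5 and 33. PTPRC and CD14 lay under 1 CPM in 1 library each, so the filter fixed their direction. Neither call held with the deposited log2 values (differences of -0.21 and 0.942), neither gene is measured at 5 CPM, and the call of PTPRC did not hold with the whole interval beyond 2-fold. The part of these markers in the ADGRE2 value was not tested. The related ADGRE5 (CD97), which binds CD55, had 2289 and 1749 counts (136 and 103 CPM) and was not called, at a log2 ratio of -0.40 (-0.49 to -0.31). The counts of ADGRE2 and ADGRE5 are uncertain, because 13.3% of the 50-base stretches of the longest ADGRE5 transcript also occur in ADGRE2 transcripts, and 7.68% of those of ADGRE2 occur in ADGRE5 or ADGRE3. In addition, 18.3% of the exon bases of ADGRE2 overlap ZNF333 on the opposite strand, a gene with 112 and 124 counts, and the strand setting of the counting is not stated. ADGRE1 and ADGRE3, of macrophages and granulocytes, had 0 counts in both libraries.

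The latrophilins, neuronal adhesion receptors that bind teneurins and FLRT proteins, went in opposite directions. ADGRL1 had 2818 counts (167 CPM) in parental and 1147 counts (67.6 CPM) in resistant cells, and was 2.48-fold lower (2.31 to 2.66). ADGRL2 had 247 counts (14.7 CPM) and 576 counts (33.9 CPM), and was 2.31-fold higher (1.99 to 2.70). Their coding lengths are equal, and ADGRL1 stood above ADGRL2 in both libraries, at 37.9 and 3.32 CPM per kb of coding length in parental and 15.3 and 7.67 in resistant cells. ADGRL3 had 9 and 5 counts, and ADGRL4, an endothelial receptor, had 0 in both.

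ADGRD1 (GPR133), a Gs-coupled receptor studied in glioblastoma, had 5 counts (0.297 CPM) in parental cells, against 34 counts (2.003 CPM) in resistant cells. It was 6.74-fold higher (2.62 to 22.1), at a level that remained low. The deposited normalized values, which behave as log2 of a length-scaled level plus 1, shrink differences of scarce genes. In them ADGRD1 differed by 0.38, ADGRE2 by -0.91 and ADGRL2 by 0.95, all short of 1, whereas ADGRF1 (-4.35), ADGRF4 (-1.04) and ADGRL1 (-1.22) passed.

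**Figure D2:**
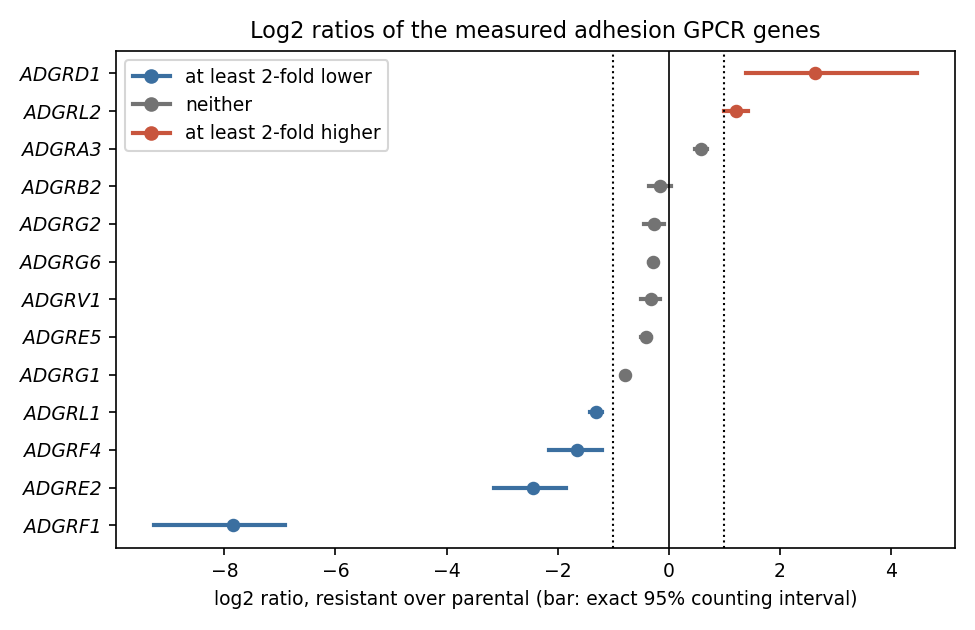
Log2 ratio of the resistant over the parental library for the 13 measured adhesion GPCR genes, with exact 95% counting intervals as bars and dotted lines at a log2 ratio of 1 in either direction. ADGRF1 lies at -7.85 with ADGRE2, ADGRF4 and ADGRL1 also below the lower line, ADGRD1 and ADGRL2 lie above the upper line, and the other 7 genes fall between.

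Of the 7 measured members that were not called, 6 had ratios below 0. ADGRG1 (GPR56), a receptor for collagen III and transglutaminase 2, had 4665 counts (277 CPM) in parental and 2744 counts (162 CPM) in resistant cells, a log2 ratio of -0.78 (-0.85 to -0.71). ADGRG6 (GPR126), which binds collagen IV and laminin and is needed for myelination by Schwann cells, had 4960 and 4100 counts (295 and 242 CPM), a ratio of -0.29 (-0.35 to -0.23). ADGRG2 (GPR64), known from the epididymis, had 601 and 504 counts and a ratio of -0.27 (-0.44 to -0.09). These 3 genes carried the ADGRG subfamily, whose sum was 608 CPM in parental and 433 CPM in resistant cells. ADGRG3 and ADGRG4 had 5 counts or fewer in either library, and ADGRG5 and ADGRG7 had 0.

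ADGRV1, the very large receptor of the inner ear and retina, had 617 and 498 counts and a log2 ratio of -0.32 (-0.49 to -0.15). ADGRB2 (BAI2), a brain receptor of the BAI subfamily, had 451 and 408 counts and a ratio of -0.16, with an interval (-0.35 to 0.04) that included 0. ADGRA3 (GPR125) was the single uncalled member with a ratio above 0: it had 1093 counts (64.9 CPM) in parental and 1655 counts (97.5 CPM) in resistant cells, a ratio of 0.59 (0.48 to 0.70). For ADGRA3, 9.45% of the 50-base stretches of its longest transcript also occur in the annotated gene AP002414.2. ADGRA2, which assists WNT7 signalling, had 9 and 10 counts, ADGRB1 had 6 and 3, and ADGRA1 and ADGRB3 had 0. A count of 0 allows up to 3 counts, or 0.178 CPM for parental and 0.177 CPM for resistant cells.

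All 28 members together had 1176 CPM in parental and 797 CPM in resistant cells, a log2 ratio of -0.56 (-0.59 to -0.53). Without ADGRF1 the sums were 1074 and 797 CPM, a ratio of -0.43 (-0.46 to -0.40). In bulk RNA, fewer cells that express a gene and less RNA per cell cannot be told apart.

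Levels of different genes were compared per kilobase of coding length (GENCODE 29, longest coding sequence). ADGRG1 led in both libraries, at 133 CPM per kb in the parental (exact Poisson interval 129 to 137) and 77.8 CPM per kb in the resistant one (74.9 to 80.7). ADGRG6 followed at 78.6 and 64.4 CPM per kb and ADGRE5 at 54.3 and 41.1, and these 3 genes held 68.6% of the summed length-scaled level in parental and 73.3% in resistant cells. In the parental library ADGRL1 (37.9) and ADGRF1 (37.4 CPM per kb) came next and did not differ beyond counting error. In the resistant library ADGRA3 took rank 4 at 24.6 CPM per kb, ADGRL1 took rank 5 at 15.3, and ADGRF1 was last of the 13 at 0.151 CPM per kb. ADGRF4, ADGRL2 and ADGRE2 in the parental library had intervals that overlapped between neighbouring ranks, as did ADGRV1, ADGRF4, ADGRD1 and ADGRE2 in the resistant one. With the authors' length-scaled values 2 neighbouring members, ADGRE2 and ADGRV1, changed places in the parental library and 0 in the resistant one. The gaps between genes did change, since parental ADGRG6 and ADGRE5 were almost level in those values, at 42.4 and 42.1. The sizes of the gaps and the shares given above thus depend on the length used.

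**Figure D3:**
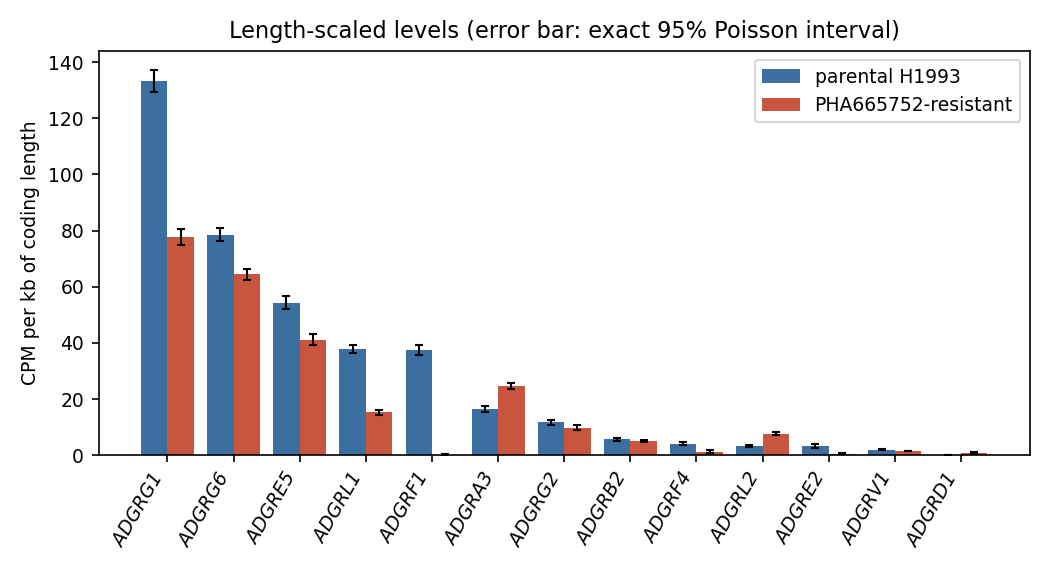
Level of the 13 measured genes in CPM per kilobase of coding length, ordered by the parental library, with exact 95% Poisson intervals as error bars. ADGRG1, ADGRG6 and ADGRE5 lead in both libraries, while the bar of ADGRF1 falls from 37.4 to 0.151.

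The CELSR genes encode adhesion GPCRs of planar cell polarity that the symbol rule leaves out. CELSR1 had 1899 counts (113 CPM) in parental and 373 counts (22.0 CPM) in resistant cells, and was 5.13-fold lower (4.59 to 5.75). CELSR3 had 146 counts (8.67 CPM) and 440 counts (25.9 CPM) and was 2.99-fold higher (2.47 to 3.63), though its deposited log2 values differed by 0.87. CELSR2, with 1703 and 1329 counts, was not called (-0.37). Of these 3 genes 1 was thus lower and 1 higher, where 20.4% of all measured genes were called in either direction.

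Genes of extracellular ligands and partners went both ways. Of 28 measured among 38 listed, 9 were higher and 5 lower, against 12.1% and 8.29% of all measured genes. The median log2 ratio was 0.16, and 0.31 both at 5 CPM and with no filter. RECK and WNT7A, both higher, and TENM4 and UNC5B, both lower, lay under 1 CPM in 1 library, so the filter fixed their direction. Among the latrophilin ligands, the teneurin gene TENM3 was 3.26-fold higher (2.98 to 3.58), with 600 counts in parental and 1975 in resistant cells. TENM4, another teneurin gene, had 48 and 0 counts and was at least 16.1-fold lower. FLRT2 had 276 and 1811 counts and was 6.51-fold higher (5.73 to 7.41), and FLRT3, with 32 and 87 counts, was 2.70-fold higher (1.78 to 4.18). UNC5B, a netrin receptor that also binds FLRT proteins, had 228 and 16 counts and was 14.4-fold lower (8.66 to 25.6).

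For ADGRD1, itself at only 5 and 34 counts, genes of proteins that have been described as its binding partners were higher in the same library. A link between these genes and ADGRD1 was not tested. PLXDC2 had 20 and 223 counts, 11.1-fold higher (6.99 to 18.5), and PTK7 had 47 and 101 counts, 2.13-fold higher (1.49 to 3.08). TGM2, the transglutaminase that binds ADGRG1, had 41 and 11948 counts, 289-fold higher (213 to 403), while ADGRG1 was not called. COL3A1, its collagen ligand, had 3 and 6 counts and was not measured. The tetraspanin gene CD9, whose protein is found in complexes with ADGRG1, had 1546 and 446 counts and was 3.50-fold lower (3.14 to 3.89). CD81, the other tetraspanin gene listed, had 4659 and 3978 counts (277 and 234 CPM) and was not called (-0.24). COL4A1, a chain of the collagen IV bound by ADGRG6, had 327 and 100 counts and was 3.30-fold lower (2.63 to 4.17). The other chain listed, COL4A2, had 908 and 971 counts (53.9 and 57.2 CPM) and was not called (0.08), nor was the laminin gene LAMA2, with 31 and 35 counts.

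CD55, the ligand of ADGRE5, had 1554 and 3129 counts (92.3 and 184 CPM) and was just short of the rule, at 1.997-fold (1.88 to 2.12), though its deposited log2 values differed by 1.02. The integrin gene ITGA5, whose protein can bind the outer fragment of ADGRE5, had 634 and 313 counts and was 2.04-fold lower (1.78 to 2.35). WNT7A and RECK, which act with ADGRA2, were higher: WNT7A had 13 and 97 counts, 7.40-fold (4.13 to 14.4), and RECK had 0 and 28, at least 9.26-fold. WNT7B, with 2615 and 3259 counts (155 and 192 CPM), was not called (0.31), and WNT7A was at 0.772 and 5.71 CPM. ADGRA2 itself had 9 and 10 counts. C1QL1, of the C1q-like ligands of ADGRB3, had 31 and 145 counts and was 4.64-fold higher (3.13 to 7.08), while C1QL3, with 23 and 26, was not called and ADGRB3 had 0 counts in both libraries. The most abundant gene of the list, the integrin gene ITGB1, was not called (-0.17). With the deposited log2 values the differences of FLRT3 (0.65), PLXDC2 (0.90), PTK7 (0.52), RECK (0.46), ITGA5 (-0.89) and TENM4 (-0.27) fell short of 1. The calls of FLRT3, PTK7 and ITGA5 also did not hold with the whole interval beyond 2-fold.

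Inside the cell, of 11 measured genes of G protein alpha subunits 1 was lower and 0 higher, with a median of 0.03, where 20.4% of all measured genes were called. The lower gene was GNAS, the gene of the stimulatory subunit Gs, which raises cyclic AMP and which had the highest CPM of them. It had 21564 counts (1281 CPM) in parental and 6564 counts (387 CPM) in resistant cells, 3.31-fold lower (3.22 to 3.41). GNA12 (-0.15) and GNA13 (-0.29), whose proteins carry adhesion GPCR signals, were not called.

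Of 21 measured intracellular partners and effectors, 1 was higher and 1 lower, against 12.1% and 8.29% of all measured genes. The median was 0.28, and 0.15 with the deposited log2 values. ARHGEF1, an exchange factor that links G12 and G13 to RHOA, had 889 and 2620 counts and was 2.92-fold higher (2.71 to 3.16). MAGI1, a junctional scaffold of the family that binds BAI receptors, had 850 and 259 counts and was 3.31-fold lower (2.88 to 3.82). RHOA, the most abundant, had 485 and 501 CPM, and the other 18 genes passed in neither direction.

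**Figure D4:**
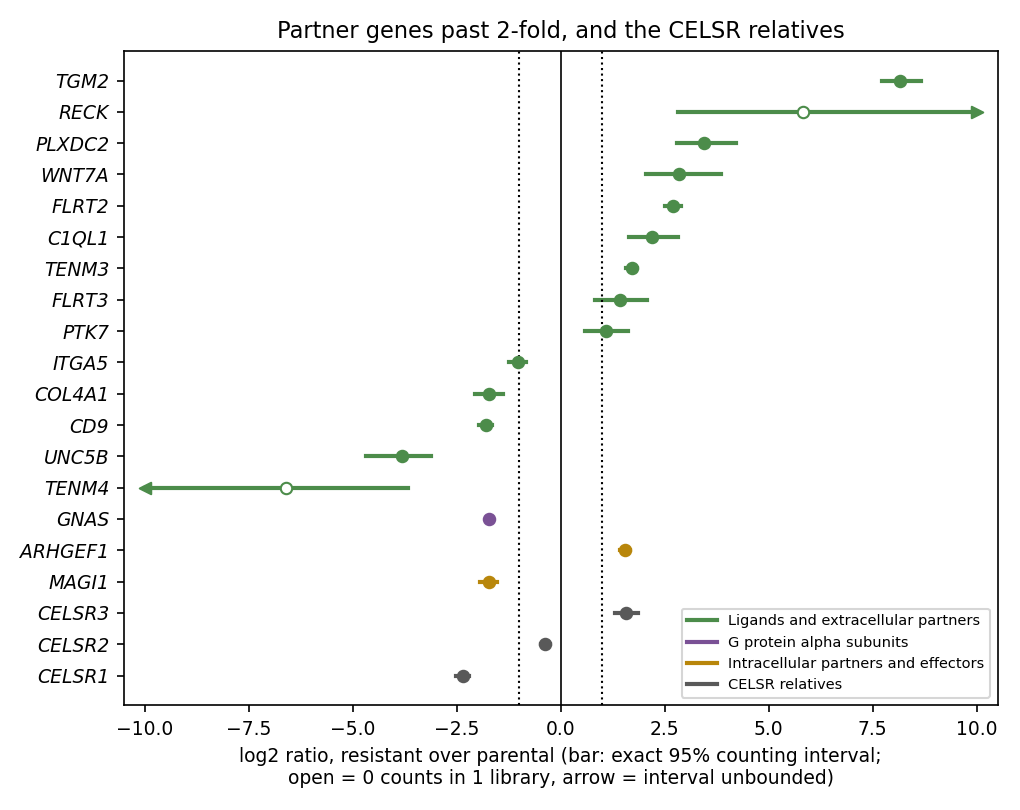
Log2 ratio of the resistant over the parental library for each ligand, G protein and effector gene past 2-fold and for the 3 CELSR genes, with exact 95% counting intervals; open symbols have 0 counts in 1 library, and arrows mark unbounded intervals. TENM3, FLRT2 and FLRT3 lie on the higher side and TENM4 and UNC5B on the lower side, and GNAS is the single G protein gene shown.

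Neighbouring genes were taken as the 5 on each side in RefSeq gene order that the deposited table holds. Of all measured genes, 8.29% were lower and 12.1% higher. Around ADGRF1, 4 of 10 neighbours were measured and 3 of them were lower: PLA2G7 with 28 and 0 counts, TNFRSF21 with 6002 and 1801 (log2 ratio -1.75), and ADGRF4 itself. CD2AP, between TNFRSF21 and ADGRF4, was not called at -0.54. Around ADGRF4, 5 of 10 neighbours were measured and 3 of them were lower: ADGRF1, TNFRSF21 and C6orf141 (-1.13). The other measured neighbours of ADGRF4 were CD2AP and CENPQ, and CENPQ, with 80 and 89 counts, was not called at 0.14. The sets around ADGRF1 and ADGRF4 overlap, since TNFRSF21 counts in both and each receptor counts as a neighbour of the other. PLA2G7 was measured only through the parental library, so the filter fixed its direction. The ratio of ADGRF1 was -7.85, and that of PLA2G7, at 0 counts in resistant cells, has no lower limit.

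ADGRL1 and ADGRE5 are direct neighbours on chromosome 19. None of the 7 measured neighbours of ADGRL1 was called, and their median was -0.40, the value of ADGRE5. None of the 3 measured neighbours of ADGRE2 was called either, with a median of -0.08. ADGRD1, which was higher, lay among 8 measured neighbours with ratios below 0, a median of -0.63, and 2 of them were lower, FZD10 (-4.62) and MMP17 (-2.98). Around ADGRL2 the median of 5 measured neighbours was 0.04, and 2 were lower, IFI44L (-2.16) and SAMD13 (-2.62). FZD10, MMP17 and SAMD13 were measured only through the parental library, so the filter fixed their direction.

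**Figure D5:**
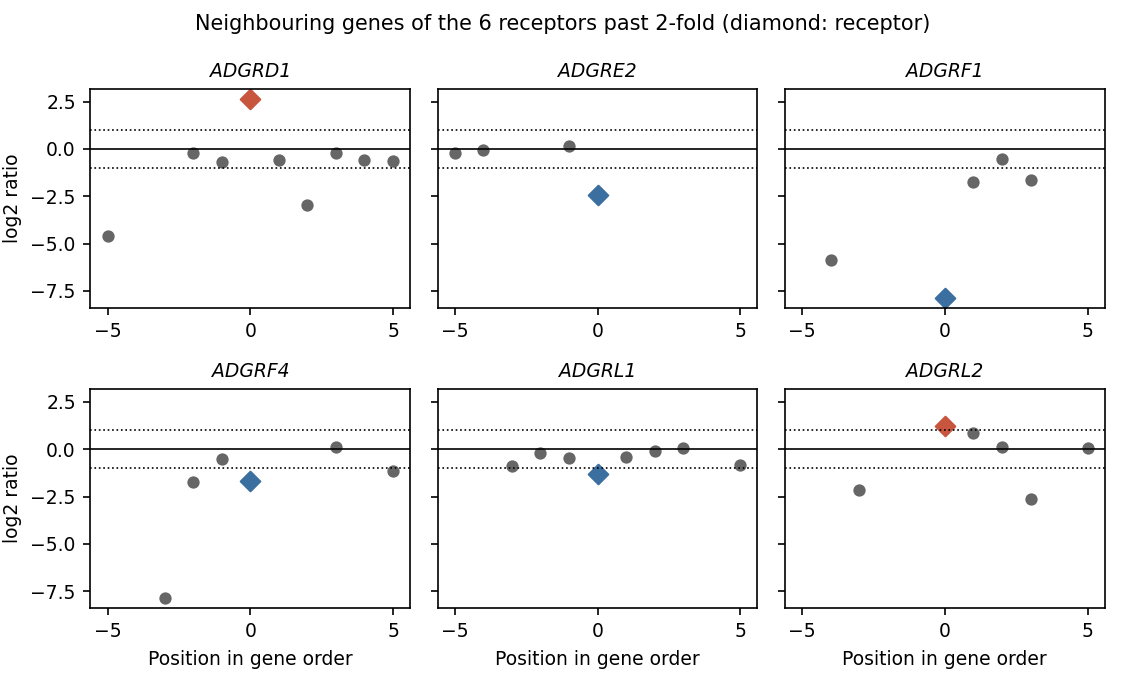
Log2 ratio of the resistant over the parental library (vertical axis) for the measured genes among the 5 neighbours on each side, by position in gene order (horizontal axis), around each of the 6 called receptors, which are drawn as diamonds. All measured neighbours of ADGRF1 lie below 0, and all those of ADGRD1 lie below 0 while ADGRD1 itself lies at 2.64.

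Total depth was 16723181 counts for parental and 17086748 for resistant cells. The epithelial markers KRT7, KRT8, KRT18, KRT19, EPCAM and CDH1 were each at 164 CPM or more in both, and EPCAM was the 1 called gene of these, 2.38-fold lower (2.27 to 2.49). Of the lung markers, NKX2-1 was at 4.16 and 5.95 CPM, SFTPB had 2 counts in each library and NAPSA had 0. Among 5 endothelial markers CDH5 was higher, with 5 and 495 counts, while KDR and TEK had 0 and PECAM1 and VWF no more than 1 in either library. Among 5 fibroblast markers COL1A1 had 348 and 242 counts and the other 4 had 2 or fewer. The part of these endothelial and fibroblast markers in the receptor values was not tested.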

How the data were processed

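RNA sequencing counts of 2 libraries were used, 1 parental and 1 resistant. The authors deposited raw counts per gene symbol and normalized log2 values, per the file headers. FastQC, STAR and the builds GRCh38 and hg19 are named per the submitters' processing notes. The counting program, annotation and strand setting are not given in the sources used here, so deposited values carry no coordinates. The method of the deposited log2 values is not given either. For 97.8% of 10241 genes with over 50 counts in both libraries, 2 to the power of the value, minus 1, gave the same implied gene length in both libraries within 0.1 on the log2 scale, after a common offset.

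Libraries were scaled with edgeR 4.0.16 (TMM, R 4.3.3) to effective sizes of 16834058 and 16974207. Log2 ratios had 0.5 added to each count. Exact conditional binomial intervals (Clopper-Pearson, scipy 1.17.1) and folds used counts without addition, and folds against 0 counts used 3 counts. All intervals cover counting error only, since with 1 library per group no variation between replicates enters them. They also treat reads as independent molecules, which reads are not. The procedure was tested on simulated data with counting error only and 4-fold changes placed in genes with many counts. That simulation does not cover variation between replicates or the recovery of changes in scarce genes. Coding lengths, exon overlaps and shared 50-base stretches came from GENCODE 29, and gene order from RefSeq (GRCh38.p14).

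All members are accounted for. In other lists each called gene and the most abundant gene are named, except 1 called gene of the other receptors, which is not reported here. Neighbours, markers, CD55, CD81, C1QL3, COL3A1, COL4A2, LAMA2, WNT7B, GNA12 and GNA13 were named after their values were seen. The members and lists were chosen with earlier results of these data known. Of the intracellular list, 22 of 24 symbols were found. Alternatives were other scaling (DESeq2 1.42.0 size factors or total counts), filters, addition, size rules and the deposited log2 values. Protein sequences are not used here. Coding length came from GENCODE instead of protein length.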

Additional observations from a re-analysis of the deposited data

How the results depend on the processing

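Of the 13 measured members, all kept their direction and side of the rule with median-of-ratios size factors, total counts, no filter or 2 added to each count, and the 12 that pass 5 CPM kept them there. The 2 higher members became 1 at 5 CPM, where ADGRD1 is no longer measured, 1 when the whole interval had to lie beyond 2-fold, where ADGRL2 drops out, 1 at 4-fold and 0 with the deposited log2 values. The 4 lower members became 2 at 4-fold, where ADGRF4 and ADGRL1 drop out. The 10 higher and 7 lower genes of the ligand, G protein and effector lists became 6 and 2 at 4-fold. Over all genes, 1480 higher and 1015 lower became 774 and 359 at 4-fold and 926 and 591 with the deposited log2 values, and 655 were lower with the whole interval beyond 2-fold. The stricter size rules lower these counts by construction. No member reversed under any of these settings. The filters and size rules leave the ratios as they are, so they could not have reversed any. ADGRD1, ADGRF1 and ADGRE2 rest on 5, 7 and 25 counts in 1 library each, and there depth limits how well the size of the ratio is known. No paired analysis was possible because there was 1 library per group.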

Other observations

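Other G protein-coupled receptor genes, from a list of 56 chosen after the values were seen, were higher for 10 and lower for 8 of 35 measured members, against 12.1% and 8.29% of all measured genes. The median log2 ratio was 0.51, but 0.17 at 5 CPM, where 6 were higher, and 0.15 with the deposited log2 values, and 4 were lower at 4-fold. The Frizzled genes, WNT receptors, went both ways: FZD4 had 435 and 2381 counts and was 5.43-fold higher (4.90 to 6.03) and FZD1 was 2.86-fold higher (2.48 to 3.31), while FZD5 was 2.49-fold (2.24 to 2.78), FZD7 2.19-fold (1.73 to 2.79) and FZD10 27.5-fold (10.4 to 103) lower. The protease-activated receptor gene F2RL1 had 1629 and 302 counts, 5.44-fold lower (4.81 to 6.17), and its relative F2RL2 had 1 and 66. The prostaglandin receptor gene PTGER4 had 1816 and 308 counts, 5.95-fold lower (5.27 to 6.73). The retinoic acid-induced receptor gene GPRC5A, the most abundant of the list, was 2.57-fold lower (2.43 to 2.72) and GPRC5B 2.27-fold higher (1.94 to 2.68). Of the CXCL12 receptors, CXCR4 had 39 and 0 counts and ACKR3 had 0 and 122. The nucleotide receptor gene P2RY2 had 699 and 277 counts and P2RY6 had 7 and 172. Other higher genes included ADORA1, with 25 and 103 counts, EDNRA with 0 and 27, and GPER1 with 2 and 44. With the deposited log2 values the differences of FZD7 (-0.795), EDNRA (0.473) and GPER1 (0.895) fell short of 1. F2RL2, ACKR3, P2RY6, EDNRA, GPER1, FZD10 and CXCR4 lay under 1 CPM in 1 library, so the filter fixed their direction.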
